A study of Homo sapiens with 24 samples.

Results

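Transcript levels of 10 genes of endoplasmic reticulum (ER) protein folding and the unfolded protein response were followed across 24 RNA-seq libraries of A549 cells, a line grown from a human lung adenocarcinoma. The genes are HSPA5, HSP90B1, CALR, SDF2L1, DNAJB9, DNAJC3, PDIA4, HERPUD1, EDEM1 and XBP1. They are 10 of the 60609 gene rows of the table, picked by name and chosen by their TPM in these libraries, including how it split libraries of 1 group. All 10 passed the filter on low values (at least 1 TPM in at least 3 libraries), as did 16062 rows in all.

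Every culture was transfected with siRNA for 48 h, either a pool against BOP1 (siBOP1) or a control against firefly luciferase (siFLuc), an insect gene. BOP1 takes part in building the large ribosomal subunit. The cells then received a mock treatment or interferon beta (IFN) at 1000 U/mL, and polyadenylated RNA was taken after 8 h or 12 h. The 8 groups are therefore siFLuc mock, siFLuc IFN, siBOP1 mock and siBOP1 IFN, each at 8 h and at 12 h, with 3 libraries a group. All groups share the cell line and the transfection, so no untransfected cells enter any comparison. The columns of a group are numbered 1, 2 and 4, whereas the labels number replicates up to 3, so the 8 libraries numbered 4 were used by group only. Values are TPM, a library's transcripts per gene corrected for length and scaled to 1 fixed total, which keep no sequencing depth. Counting error therefore has no value here, and fewer cells expressing a gene cannot be told apart from less RNA per cell.

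The ER is where secreted and membrane proteins fold, helped by chaperones of the HSP70, HSP90 and lectin types and by disulfide isomerases. When unfolded proteins accumulate, the sensors IRE1 (gene ERN1), PERK (EIF2AK3) and ATF6 are released from the chaperone BiP, the product of HSPA5. IRE1 splices XBP1 mRNA into the form that encodes an active transcription factor, PERK slows translation and favours ATF4, and ATF6 is cut to release a transcription factor. Together they raise chaperones and the machinery of ER-associated degradation, and prolonged signalling raises DDIT3 (CHOP). A gene-level TPM does not separate spliced from unspliced XBP1 mRNA.

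The members fall into roles. HSPA5 (ENSG00000044574.8, chromosome 9, 125234853 to 125241330, minus strand) encodes BiP, the HSP70 of the ER lumen. HSP90B1 (ENSG00000166598.15, chromosome 12, 103930107 to 103953645, plus strand) encodes GRP94, the ER HSP90. CALR (ENSG00000179218.13, chromosome 19, 12938578 to 12944489, plus strand) encodes calreticulin, a calcium-binding lectin chaperone that also serves in loading peptides on HLA class I. SDF2L1 (ENSG00000128228.5, chromosome 22, 21642261 to 21644298, plus strand), DNAJB9 (ENSG00000128590.5, chromosome 7, 108569568 to 108574850, plus strand) and DNAJC3 (ENSG00000102580.15, chromosome 13, 95677139 to 95794989, plus strand) encode partners of the BiP system. DNAJB9 is the J-domain protein ERdj4, and DNAJC3 is P58IPK, also described as an inhibitor of the kinases PKR and PERK. PDIA4 (ENSG00000155660.11, chromosome 7, 149003062 to 149028641, minus strand) is a disulfide isomerase. HERPUD1 (ENSG00000051108.15, chromosome 16, 56932048 to 56944863, plus strand) and EDEM1 (ENSG00000134109.11, chromosome 3, 5187646 to 5219957, plus strand) act in ER-associated degradation. XBP1 (ENSG00000100219.16, chromosome 22, 28794555 to 28800597, minus strand) is the transcription factor. Coordinates are those of GENCODE 29 on GRCh38, which annotates all 10 as protein coding. The build behind the TPM values is not given in the sources used here.

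The promoters of some of these genes are textbook examples of ER stress control, so the elements found in the 10 genes are shown first. RefSeq windows of GRCh38.p14, from 250 bases before to 50 after a gene's annotated start, existed for all 10 members (12 windows, as PDIA4 and XBP1 each have 2). The ER stress response element, searched on both strands as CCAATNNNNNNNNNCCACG, occurred in 27 of 35116 windows (0.0769%), and 4 members held it. The shorter form ATTGGNCCACG occurred in 19 windows (0.0541%), and 2 members held it. The elements are given below in the direction of the motif, with its fixed bases in capitals.
HSPA5 at chr9:125241391-125241409: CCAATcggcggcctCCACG
HSP90B1 at chr12:103930216-103930234: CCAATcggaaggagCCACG
HSP90B1 at chr12:103930321-103930339: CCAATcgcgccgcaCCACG
CALR at chr19:12938384-12938402: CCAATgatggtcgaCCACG
XBP1 at chr22:28800603-28800621: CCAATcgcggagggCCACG
HERPUD1 at chr16:56932025-56932035: ATTGGgCCACG
SDF2L1 at chr22:21642114-21642124: ATTGGtCCACG

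The longer matches begin 66 bases before the start of HSPA5, 194 and 89 before that of HSP90B1, 225 before CALR and 52 before XBP1. The shorter ones begin 117 bases before the start of HERPUD1 and 188 before that of SDF2L1. These starts are those of the RefSeq windows, and some differ from the GENCODE starts given above. Both HSP90B1 matches lie inside the GENCODE span of that gene. HERPUD1 also held the C/EBP-ATF element TTGCATCA, 176 bases before its start, which 304 windows (0.866%) share. No member window held TGACGTGG, the core of the unfolded protein response element (256 windows, 0.729%), or GAAANNGAAA, a pattern of interferon-stimulated response elements (1255 windows, 3.57%). Both strands were searched for each motif, and the CCACG that ends both forms of the ER stress element is also part of TGACGTGG on the other strand. The windows of DNAJB9, DNAJC3, PDIA4 and EDEM1 held none of the motifs searched. A match is a description of letters in the window and not a measured binding site. The lack of a match says only that these letters are not there.

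The whole windows of 3 members are printed, since HSPA5 has the largest IFN difference of the members that passed, and HERPUD1 and DNAJB9 the widest differences between libraries of 1 group. Capitals mark the elements named above, and the window of DNAJB9 holds none of them.
HSPA5, chr9:125241294-125241593, minus strand: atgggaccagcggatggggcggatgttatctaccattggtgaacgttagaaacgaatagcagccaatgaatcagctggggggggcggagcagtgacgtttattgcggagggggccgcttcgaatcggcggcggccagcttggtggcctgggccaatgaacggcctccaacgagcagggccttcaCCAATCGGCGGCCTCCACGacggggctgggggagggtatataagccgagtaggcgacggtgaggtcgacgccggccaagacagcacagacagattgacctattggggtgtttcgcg
HERPUD1, chr16:56931892-56932191, plus strand: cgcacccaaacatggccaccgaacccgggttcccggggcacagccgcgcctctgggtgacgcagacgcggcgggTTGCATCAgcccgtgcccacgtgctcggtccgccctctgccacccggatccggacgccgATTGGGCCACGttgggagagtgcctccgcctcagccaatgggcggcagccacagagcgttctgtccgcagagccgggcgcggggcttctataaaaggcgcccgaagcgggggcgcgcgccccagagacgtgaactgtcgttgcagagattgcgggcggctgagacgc
DNAJB9, chr7:108569624-108569923, plus strand: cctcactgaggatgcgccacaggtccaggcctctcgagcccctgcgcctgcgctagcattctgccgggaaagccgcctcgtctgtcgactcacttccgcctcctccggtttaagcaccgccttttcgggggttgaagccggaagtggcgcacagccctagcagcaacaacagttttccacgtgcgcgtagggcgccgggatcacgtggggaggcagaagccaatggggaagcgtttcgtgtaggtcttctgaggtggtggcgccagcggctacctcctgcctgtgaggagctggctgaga

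Label and cell checks preceded the results. BOP1 read 66.4 ± 10.7, 56.1 ± 8.23, 63.3 ± 13.9 and 46.0 ± 14.7 TPM (mean ± SD, n = 3) with siFLuc in mock 8 h, IFN 8 h, mock 12 h and IFN 12 h. With siBOP1 it read 18.6 ± 0.750, 16.6 ± 0.546, 14.9 ± 1.05 and 11.1 ± 1.28 TPM. The keratins KRT8 (2086 to 3803 TPM) and KRT18 (1785 to 2862 TPM) were high in every library, and all 5 epithelial markers were at 1 TPM or more. Of the markers of other cells, 3 of 5 for fibroblasts and 4 of 4 for endothelium stayed under 1 TPM in every library, with COL1A1 at 5.37 to 19.3 TPM and THY1 at 0.69 to 3.69 TPM. The leukocyte genes PTPRC, CD3E and LYZ stayed under 1 TPM in every library, CD3E at 0, and CD14 read 1.81 to 5.26 TPM. At 12 h the libraries numbered 4 stood apart in the share of TPM that mitochondrial genes took. It was 6.86% in that of siFLuc mock and 11.5% to 12.2% in those of the other groups, against 12.8% to 15.9% in the libraries numbered 1 and 2. Nothing in the labels says that the libraries of a group came from separate cultures, so p-values measure the spread between these libraries only.

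The 10 genes span a wide range of levels. On the length-corrected TPM scale, means over the 24 libraries ran from 610 for HSP90B1, through 392 for CALR, 334 for HSPA5, 212 for PDIA4 and 96.7 for XBP1, to 45.5 for HERPUD1, 34.3 for SDF2L1, 27.6 for DNAJB9, 22.7 for EDEM1 and 19.3 for DNAJC3. HSP90B1 was the highest member and PDIA4 the fourth in all 24 libraries. Neighbours further down were closer. CALR was above HSPA5 in 18 of 24 libraries, HERPUD1 above SDF2L1 in 15, and DNAJB9 above EDEM1 in 10. The members also differed in how much they varied. The ratio of the highest to the lowest library was 5.91 for DNAJB9 and 4.14 for HERPUD1, 2.29 for XBP1, 2.04 for HSPA5 and 2.03 for DNAJC3, and lay between 1.48 and 1.84 for the other 5.

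**Figure D1:**
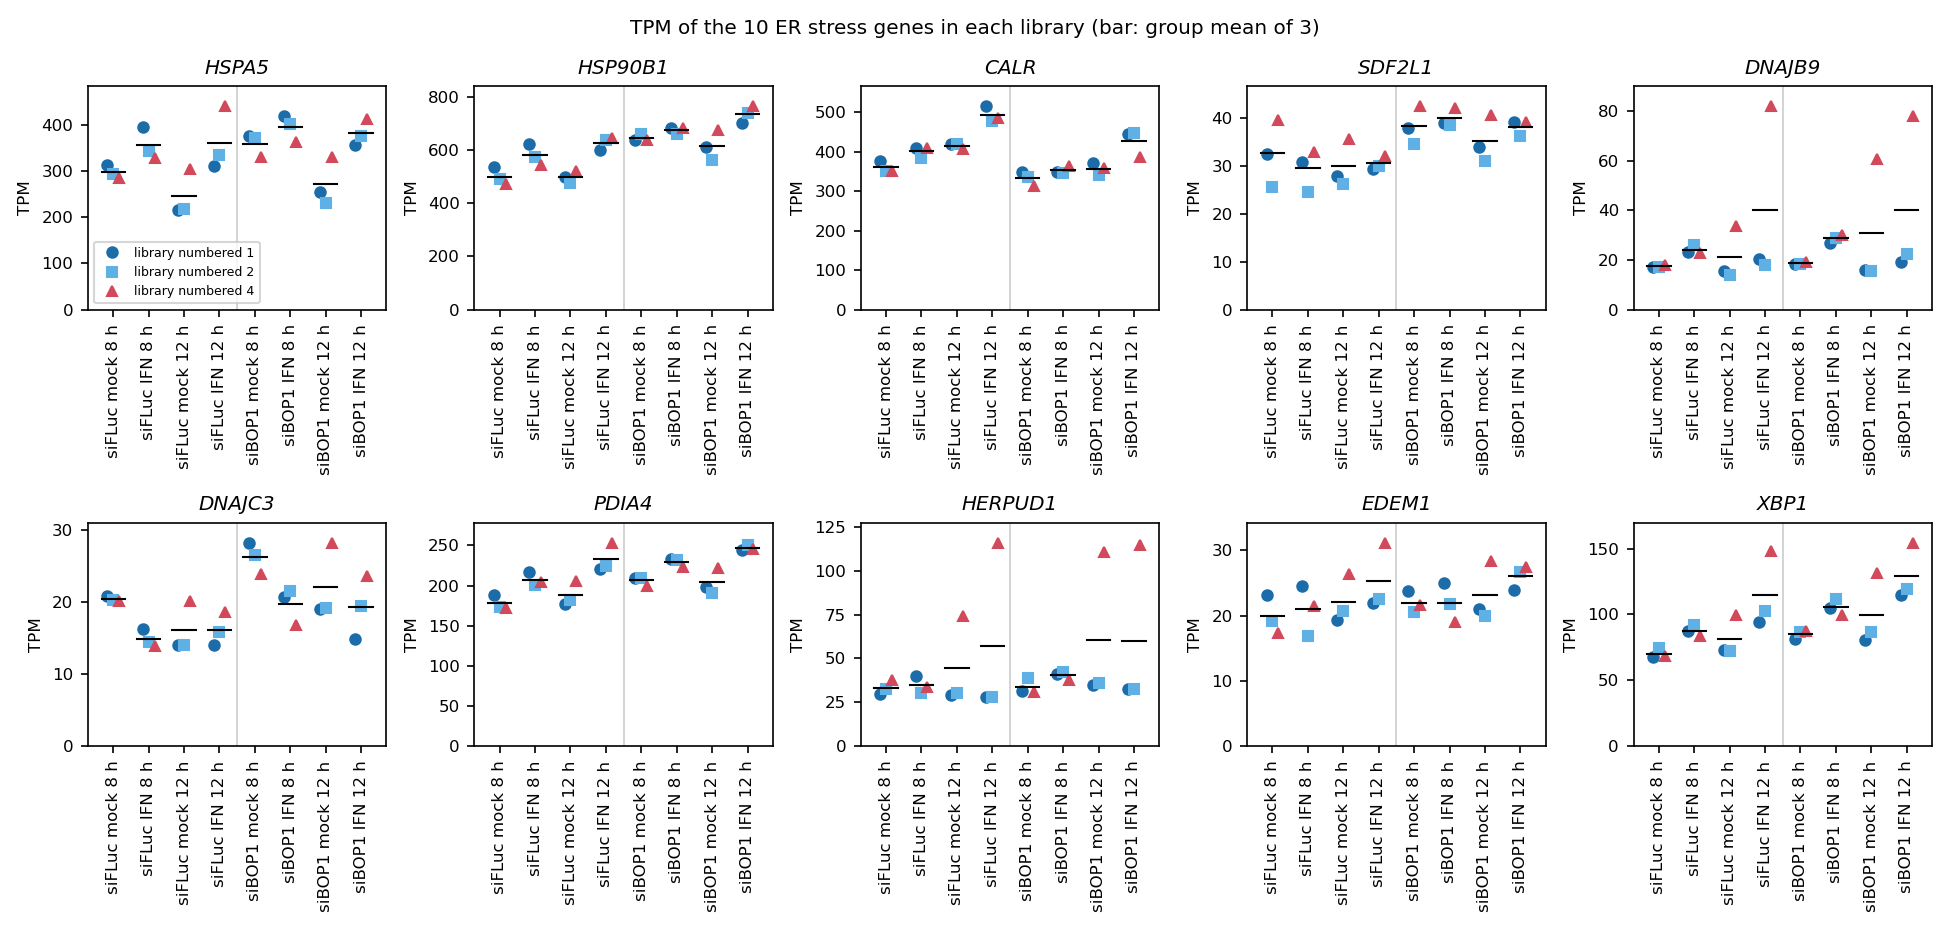
TPM of each gene in each of the 24 libraries (vertical axis, from 0) by group (horizontal axis), with the column number shown by marker and the mean of the 3 libraries as a bar. At 12 h the libraries numbered 4 hold the highest DNAJB9 (33.6 to 82.0 TPM) and HERPUD1 (74.1 to 116 TPM) of each group, while HSP90B1 and CALR vary little within groups.

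IFN was compared with mock for each siRNA and time, which asks how the interferon response touches these genes and whether BOP1 depletion alters that. At 12 h the abundant folding factors HSPA5, HSP90B1, CALR and PDIA4 were higher with IFN under both siRNAs, HSPA5 by 0.56 and 0.51 and the others by 0.25 to 0.33 on the log2(TPM + 1) scale. DNAJB9 and XBP1 differed by 0.37 to 0.66 at 12 h, with wide spreads between libraries, and did not pass. HERPUD1, EDEM1 and SDF2L1 did not pass in any IFN comparison. At 8 h no member passed, and DNAJC3 was the member with values below mock under both siRNAs.

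HSPA5 is given library by library, always in the order of the column numbers 1, 2 and 4. With siFLuc at 8 h, HSPA5 was at 312, 294 and 284 TPM in mock and 395, 344 and 329 TPM in IFN libraries. At 12 h with siFLuc, mock libraries held 216, 218 and 304 TPM of HSPA5 and IFN libraries 310.3, 334 and 440.2 TPM. In both cases every IFN library lay above every mock library. HSPA5 with siBOP1 read 376, 372 and 329.5 TPM in mock and 420.2, 402 and 364 TPM with IFN at 8 h. The siBOP1 libraries of 12 h had HSPA5 at 254, 230.3 and 330.0 TPM in mock and at 356, 377 and 414 TPM with IFN. With siBOP1 the groups overlapped at 8 h and did not overlap at 12 h. The difference at 12 h was 0.56 ± 0.14 with siFLuc (SE, adjusted p = 0.0109) and 0.51 ± 0.14 with siBOP1 (adjusted p = 0.0198), by limma with Benjamini-Hochberg adjustment over all genes tested. At 8 h it was 0.26 (adjusted p = 0.304) and 0.14 (adjusted p = 0.575).

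HSP90B1, the ER HSP90, had the smallest adjusted p of the members with siFLuc at 12 h. In mock cells of 12 h with siFLuc, HSP90B1 stood at 499.7, 476 and 522 TPM, and with IFN at 599, 637 and 645 TPM. For HSP90B1, the 12 h siBOP1 values were 613, 562 and 675 TPM in mock and 703, 742 and 765 TPM with IFN. The groups did not overlap under either siRNA at 12 h, and the differences were 0.33 ± 0.07 (adjusted p = 0.003) and 0.26 ± 0.07 (adjusted p = 0.0173) in limma. With siFLuc at 8 h, HSP90B1 was at 536, 490.5 and 474 TPM in mock and 624, 574 and 543 TPM in IFN libraries. At 8 h with siBOP1, mock libraries held 638, 660.2 and 637 TPM of HSP90B1 and IFN libraries 682, 659.6 and 684 TPM. At 8 h the difference was 0.21 (adjusted p = 0.062) with siFLuc, where the groups did not overlap, and 0.07 (adjusted p = 0.595) with siBOP1, where they did.

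PDIA4 moved by a similar amount. PDIA4 with siFLuc read 177, 182 and 206 TPM in mock and 220.2, 224 and 253 TPM with IFN at 12 h. The siBOP1 libraries of 12 h had PDIA4 at 198, 191 and 222 TPM in mock and at 245, 250.5 and 246 TPM with IFN. Every IFN library was above every mock library, with differences of 0.30 ± 0.07 (adjusted p = 0.00763) and 0.28 ± 0.07 (adjusted p = 0.0141) in limma. In mock cells of 8 h with siFLuc, PDIA4 stood at 188, 173 and 171 TPM, and with IFN at 217, 201 and 205 TPM. For PDIA4, the 8 h siBOP1 values were 209.9, 209 and 199.7 TPM in mock and 233, 232 and 223 TPM with IFN. These 8 h groups did not overlap either, though the differences of 0.22 and 0.15 did not pass (adjusted p = 0.0619 and 0.19).

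CALR, the lectin chaperone, completed the set that passed. With siFLuc at 12 h, CALR was at 421, 419 and 406 TPM in mock and 515, 477 and 486 TPM in IFN libraries. At 12 h with siBOP1, mock libraries held 371, 342 and 358 TPM of CALR and IFN libraries 445, 447 and 388 TPM. The groups were apart under both siRNAs, by 0.25 ± 0.07 (adjusted p = 0.0146) and 0.25 ± 0.07 (adjusted p = 0.0106) in limma. CALR with siFLuc read 376, 352 and 352 TPM in mock and 410.0, 384 and 409 TPM with IFN at 8 h. The siBOP1 libraries of 8 h had CALR at 349, 335 and 314 TPM in mock and at 349, 347 and 364 TPM with IFN. The 8 h differences were 0.15 (adjusted p = 0.159) and 0.09 (adjusted p = 0.418).

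In counts, 4 of 10 members passed at 12 h with siFLuc and the same 4 with siBOP1, all upward, against 13.5% and 14.8% of all genes tested. At 8 h none of the 10 passed with either siRNA, against 10.8% with siFLuc and 15.1% with siBOP1. An unadjusted p under 0.05 was reached by 4 and 1 members, and by 3659 and 4486 of the 16062 genes tested. The median difference of the members was 0.27 and 0.26 at 12 h and 0.18 and 0.11 at 8 h (siFLuc, then siBOP1). The median over all genes tested was −0.06, −0.08, −0.09 and −0.14 in the same order. TPM shares a fixed total, and median-of-ratios rescaling moved the last of these to −0.01. It also moved the upward share of all calls, from 53.2%, 52.4%, 39.7% and 48.6% (siFLuc 8 h and 12 h, siBOP1 8 h and 12 h) to 69.0%, 63.1%, 65.5% and 62.4%.

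Same-numbered libraries of different groups deviated together, so the data were also fitted with a block for the column numbers of each time. With it, 6 of 10 members passed with siFLuc at 8 h (21% of genes tested) and 6 with siFLuc at 12 h (26.9%). With siBOP1 it was 4 at 8 h (29%) and 5 at 12 h (27.9%). The choice of members used the split by column number, which the block takes out. Their calls with the block, here and below, are therefore a description and cannot be weighed against these shares. HSPA5 and HSP90B1 joined at 8 h with siFLuc (adjusted p = 0.00955 and 0.0114), and PDIA4 at 8 h with both siRNAs (adjusted p = 0.00507 and 0.0351). The transcription factor and 2 cochaperones that had not passed without it also did so, as follows.

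XBP1, the transcription factor, passed in the fit with the block. In mock cells of 8 h with siFLuc, XBP1 stood at 67.5, 74.3 and 68.7 TPM, and with IFN at 87.4, 91.8 and 83.2 TPM. For XBP1, the 12 h siFLuc values were 72.9, 71.9 and 99.4 TPM in mock and 94.0, 103 and 148 TPM with IFN. The mock library numbered 4 reached 99.4 TPM at 12 h, so the 12 h groups overlapped, yet each IFN library was above the mock library of its own number. With siBOP1 at 8 h, XBP1 was at 81.4, 86.5 and 87.7 TPM in mock and 105, 112 and 99.5 TPM in IFN libraries. At 12 h with siBOP1, mock libraries held 80.3, 86.5 and 131 TPM of XBP1 and IFN libraries 115, 119.5 and 154 TPM. The pattern was the same with siBOP1. With siFLuc the difference was 0.31 at 8 h and 0.48 at 12 h, and with siBOP1 0.30 and 0.40, with adjusted p = 0.292, 0.0691, 0.264 and 0.131 in limma. With the block all 4 passed (adjusted p = 0.00122, 1.47e-05, 0.00129 and 0.000103).

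DNAJB9, which encodes ERdj4, differed most between numbers. DNAJB9 with siFLuc read 17.1, 17.0 and 18.2 TPM in mock and 23.2, 26.1 and 22.7 TPM with IFN at 8 h. The siFLuc libraries of 12 h had DNAJB9 at 15.6, 13.9 and 33.6 TPM in mock and at 20.5, 18.0 and 82.0 TPM with IFN. At 8 h the groups did not overlap, and at 12 h each numbered pair had IFN above mock. In mock cells of 8 h with siBOP1, DNAJB9 stood at 18.4, 18.4 and 19.1 TPM, and with IFN at 26.9, 29.1 and 30.2 TPM. For DNAJB9, the 12 h siBOP1 values were 16.1, 15.6 and 60.8 TPM in mock and 19.3, 22.6 and 78.3 TPM with IFN. The same held with siBOP1. The differences of 0.43 and 0.66 with siFLuc and 0.60 and 0.37 with siBOP1 (8 h, then 12 h) had standard errors of 0.53 and did not pass. With the block, 3 passed (adjusted p = 0.0333, 0.00188 and 0.00386) and the siBOP1 12 h difference did not (adjusted p = 0.0545). The siFLuc difference at 12 h was −0.02 once the IFN library numbered 4 was left out.

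DNAJC3, the PKR and PERK inhibitor P58IPK, went the other way at 8 h. With siFLuc at 8 h, DNAJC3 was at 20.8, 20.2 and 20.2 TPM in mock and 16.2, 14.5 and 13.9 TPM in IFN libraries. At 8 h with siBOP1, mock libraries held 28.1, 26.5 and 23.9 TPM of DNAJC3 and IFN libraries 20.7, 21.6 and 16.8 TPM. Every IFN library was below every mock library under both siRNAs. The differences of −0.43 ± 0.17 and −0.40 ± 0.17 did not pass in limma (adjusted p = 0.124 and 0.131) and passed with the block (adjusted p = 0.00166 and 0.00248). DNAJC3 with siFLuc read 14.1, 14.0 and 20.1 TPM in mock and 14.0, 15.8 and 18.6 TPM with IFN at 12 h. The siBOP1 libraries of 12 h had DNAJC3 at 19.0, 19.1 and 28.2 TPM in mock and at 14.8, 19.4 and 23.6 TPM with IFN. At 12 h the groups overlapped, with differences of 0.02 (adjusted p = 0.972) and −0.19 (adjusted p = 0.538).

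The degradation factors and SDF2L1 gave values on both sides of 0. For HERPUD1 the 4 IFN differences ran from −0.06 to 0.26 with standard errors of 0.51. For EDEM1 they ran from −0.01 to 0.18 (SE 0.17), and for SDF2L1 from −0.13 to 0.12 (SE 0.14). The intervals are wide, and for HERPUD1 at 12 h with siFLuc the 95% interval of the difference was −0.91 to 1.23. HERPUD1 there read 29.1, 30.1 and 74.1 TPM in mock and 28.1, 28.0 and 116 TPM with IFN. So these data do not show that IFN left HERPUD1 alone.

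Some of the passing calls rested on 1 library. HSPA5 with siFLuc at 12 h lost its call without the mock library numbered 1 or 2 (0.47 and 0.48, adjusted p = 0.0626 and 0.061) or the IFN library numbered 4 (0.41, adjusted p = 0.0652). CALR with siFLuc lost it without the IFN library numbered 1 (0.21, adjusted p = 0.0811). With siBOP1 at 12 h, none of the members passed without the mock library numbered 2, where HSPA5 read 0.40, HSP90B1 0.19, CALR 0.22 and PDIA4 0.23 (adjusted p = 0.115, 0.118, 0.0625 and 0.0842). HSPA5, HSP90B1 and PDIA4 there also lost it without the mock library numbered 1 (adjusted p = 0.0748, 0.0523 and 0.0592). Leaving out the IFN library numbered 2 ended all 4 calls (adjusted p = 0.0541, 0.0598, 0.0682 and 0.0548 for HSPA5, HSP90B1, CALR and PDIA4). Without the IFN library numbered 4 HSPA5 and HSP90B1 lost theirs (adjusted p = 0.066 and 0.0583), and without that numbered 1 CALR did (adjusted p = 0.0613). Quantile normalization ended the 4 siBOP1 calls and that of CALR with siFLuc, and lowered the siBOP1 differences of HSP90B1 to 0.16, PDIA4 to 0.17 and CALR to 0.07. In a fit to the 2 groups compared alone, HSP90B1 with siFLuc kept its call and the other 7 did not, and without the intensity trend CALR with siFLuc and HSP90B1 with siBOP1 lost theirs (adjusted p = 0.0518 and 0.0525). Median-of-ratios rescaling brought XBP1 at 12 h past the threshold under both siRNAs (adjusted p = 0.0115 and 0.0265), and 3 members with each siRNA at 8 h. Of the 16062 genes tested, 1141 rose and 512 fell with it at 8 h with siFLuc, and 1324 rose and 698 fell with siBOP1. XBP1 at 12 h passed with siFLuc without the mock library numbered 4 or the IFN library numbered 1 (adjusted p = 0.0219 and 0.0401), and with siBOP1 without the mock library numbered 4 (adjusted p = 0.0149). Its difference was lowest with siFLuc without the IFN library numbered 4 (0.29, adjusted p = 0.28) and with siBOP1 without the mock library numbered 1 (0.27, adjusted p = 0.423). HSP90B1 at 8 h with siFLuc passed without the mock library numbered 1 or the IFN library numbered 4 (adjusted p = 0.0418 and 0.042).

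The result without any library numbered 4 bears on the split described later. In a fit of the libraries numbered 1 and 2 alone, the 12 h differences of HSPA5 were 0.57 and 0.60 (siFLuc, then siBOP1), those of HSP90B1 0.34 and 0.30, those of CALR 0.24 and 0.33, and those of PDIA4 0.31 and 0.35. All of these passed, as did XBP1 (0.44 and 0.48) and DNAJB9 (0.36 and 0.38). The choice of members used the split that this fit leaves out, so these passes are a description. The share of all genes that passed in this fit is not given here.

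**Figure D2:**
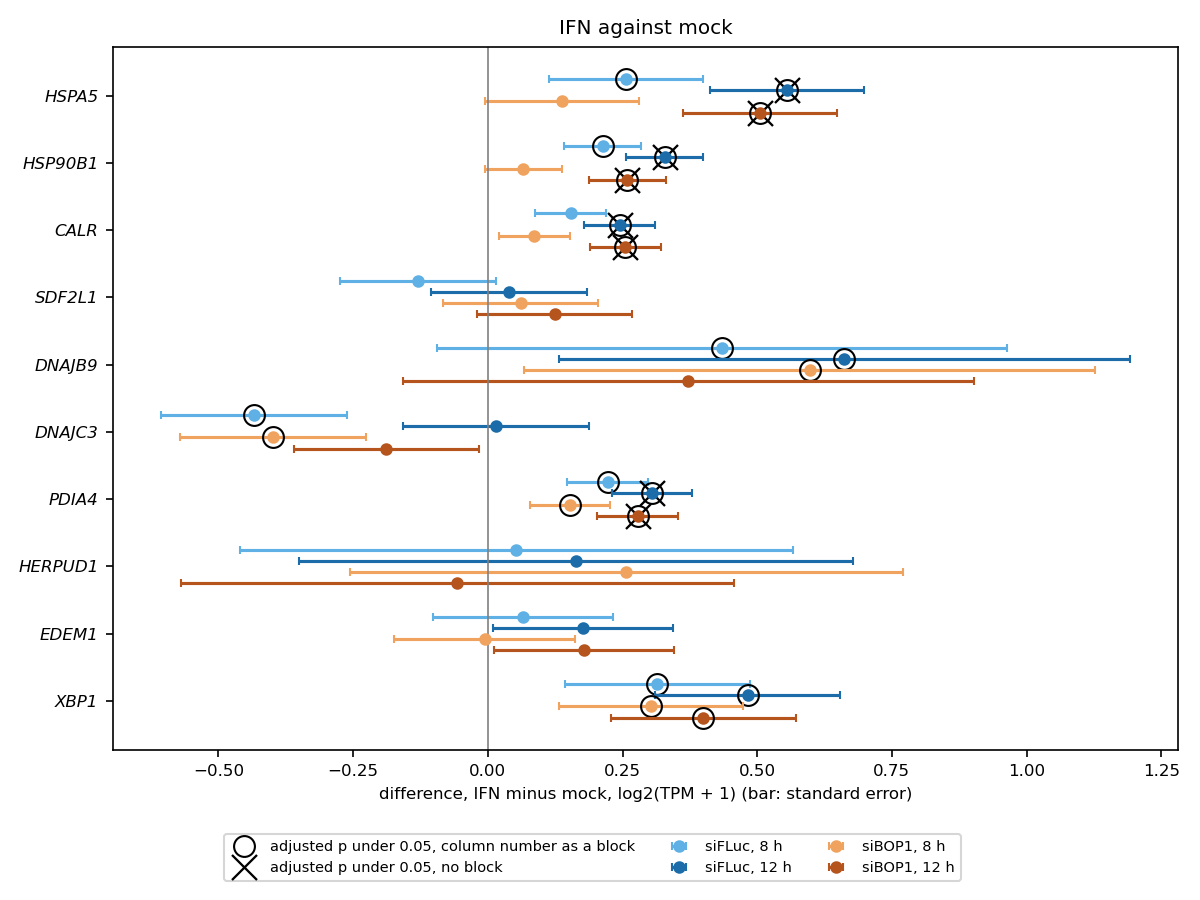
Difference between IFN and mock on the log2(TPM + 1) scale (horizontal axis) for each gene, siRNA and time, with standard errors from the limma fit without a block as bars. Crosses mark an adjusted p under 0.05 without the block and rings the same with the column number as a block. HSPA5, HSP90B1, CALR and PDIA4 carry crosses at 12 h under both siRNAs, and DNAJC3 lies below 0 at 8 h.

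The wider lists at 12 h are read against the 13.5% (siFLuc) and 14.8% (siBOP1) of all genes called. With the block these shares are 26.9% and 27.9%. Among 13 disulfide isomerases and oxidases, 4 rose and 1 fell under each siRNA, the member PDIA4 being 1 of the 4. With the block 7 rose and 1 fell with siFLuc, and 6 rose and 1 fell with siBOP1. ERP44, a thiol-dependent retention factor of the early secretory pathway, rose by 0.70 and 0.58 (adjusted p = 2.57e-05 and 0.000237 in limma). PDIA6 rose by 0.36 and 0.24 (adjusted p = 0.00257 and 0.043), and the isomerase TXNDC5 was the one that fell, with differences of −0.32 and −0.40 (adjusted p = 0.00876 and 0.00117). TXNDC5 fell at 8 h as well, with −0.37 and −0.33, and ERP44 rose by 0.33 and 0.34. Of the 16 lumenal chaperones and cochaperones, the 3 that rose under each siRNA at 12 h are the members HSPA5, HSP90B1 and CALR, and none of the others passed. With the block 7 and 6 of the 16 rose. Among 25 genes of translocation and secretory entry none rose and 2 fell under each siRNA, DAD1 of the oligosaccharyltransferase (−0.45 and −0.53) and the signal peptidase subunit SEC11A (−0.31 and −0.29). DERL1, a channel component of ER-associated degradation, was the one gene of 19 that rose with siFLuc (0.43, adjusted p = 0.0121), and none did with siBOP1. With the block 3 and 5 of the 19 rose.

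The sensors and the PERK branch form lists of their own. Of 13 sensors and transcription factors, none passed at 12 h with siFLuc and CREB3 rose with siBOP1 (0.33, adjusted p = 0.0432). ERN1, EIF2AK3, ATF6 and DDIT3 passed in no IFN comparison, with or without the block. At 12 h their differences were 0.08, 0.08, 0.05 and 0.53 with siFLuc, and 0.08, 0.02, −0.06 and 0.43 with siBOP1. ATF4 differed by 0.31 and 0.26, which passed with the block (adjusted p = 0.00231 and 0.00782) and not without it (adjusted p = 0.197 and 0.289). Among 14 targets of PERK and ATF4, NUPR1 (1.36, adjusted p = 0.0438) and CEBPB (0.43, adjusted p = 0.0217) rose with siFLuc. With siBOP1 CEBPB rose (0.70, adjusted p = 0.000303) and the cystine transporter gene SLC7A11 fell (−0.80, adjusted p = 0.0267). With the block 6 of these 14 rose and 2 fell with siFLuc, and 5 rose and 3 fell with siBOP1. Of all genes tested, 26.9% and 27.9% were called with the block. Of 10 cytosolic heat shock genes, DNAJA1 rose in all 4 comparisons, by 0.80 and 0.77 at 8 h and 0.61 and 0.79 at 12 h (siFLuc, then siBOP1), and DNAJB1 fell with siFLuc at 12 h (−1.47, adjusted p = 0.014). The mock library numbered 4 of that comparison held high DNAJB1 (a difference of 2.59 from numbers 1 and 2).

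BOP1 siRNA was compared with control siRNA at each treatment and time. HSP90B1 was the member that rose, in mock cells at both times, and CALR lay below control in each comparison. The siBOP1 and siFLuc mock libraries of these comparisons are the same ones used for the IFN differences above. HSP90B1 in mock cells at 8 h read 638, 660.2 and 637 TPM with siBOP1 against 536, 490.5 and 474 with siFLuc. The difference was 0.37 ± 0.07 (adjusted p = 0.00783 in limma), and at 12 h 0.30 ± 0.07 (adjusted p = 0.036). With IFN it was 0.22 (adjusted p = 0.126) and 0.23 (adjusted p = 0.2). In each of the 4 comparisons every siBOP1 library was above every siFLuc library. The 12 h mock call was lost without the siBOP1 library numbered 1 or 4 (0.30 and 0.23, adjusted p = 0.0954 and 0.211) or the siFLuc library numbered 1 or 2 (0.30 and 0.27, adjusted p = 0.0924 and 0.13). It was also lost without the filter on low values or without the intensity trend (adjusted p = 0.0546 and 0.105), and in fits to the 2 groups compared alone both mock calls were (adjusted p = 0.0928 and 0.324). With the libraries numbered 1 and 2 alone the 8 h call held (0.34, adjusted p = 0.0264) and the 12 h call did not (0.27, adjusted p = 0.0737).

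CALR stood opposite to HSP90B1. Its differences were −0.11 and −0.22 in mock cells and −0.18 and −0.21 with IFN (8 h, then 12 h), and every siBOP1 library was below every siFLuc library of its comparison. None passed without the block (adjusted p = 0.521, 0.108, 0.187 and 0.213), and with it the last 3 did (adjusted p = 0.022, 0.0486 and 0.0438). The rest of the members lay on the side of HSP90B1 in all 4 comparisons, with differences between 0.02 and 0.43.

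In counts, 1 of 10 members passed in mock cells at 8 h (2.16% of genes tested) and 1 in mock cells at 12 h (1.6%). None passed with IFN at 8 h (2%) or 12 h (0.66%). There 4 and 3 members had an unadjusted p under 0.05, as did 2191 and 1444 of the 16062 genes tested. With the block, 5 passed in mock cells at 8 h (8.49% of genes tested), 4 in mock cells at 12 h (7.66%), 5 with IFN at 8 h (8.81%) and 2 with IFN at 12 h (3.77%). DNAJC3 was among them in the first 3, with differences of 0.34, 0.43 and 0.38 (adjusted p = 0.0208, 0.00628 and 0.0121). XBP1 was as well, at 0.28, 0.27 and 0.27 (adjusted p = 0.00876, 0.0131 and 0.0118). HSPA5 and PDIA4 were 0.27 and 0.21 higher in mock cells at 8 h and passed there (adjusted p = 0.0158 and 0.0155), and SDF2L1 with IFN at 8 h (0.43, adjusted p = 0.00596). DNAJB9, HERPUD1 and EDEM1 passed in none. In the fit of the libraries numbered 1 and 2 alone, none of the calls gained with the block passed (adjusted p = 0.0525 to 0.331). In mock cells of 12 h, 1 library moved the difference of XBP1 and of DNAJC3: without the siBOP1 library numbered 4 they were 0.05 (adjusted p = 0.937) and 0.25 (adjusted p = 0.628) without the block. Without the siFLuc library numbered 4 the XBP1 difference was 0.42. Without the block 69.2% of the calls over all genes in mock cells at 8 h were upward, and 57.3% after median-of-ratios rescaling.

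**Figure D3:**
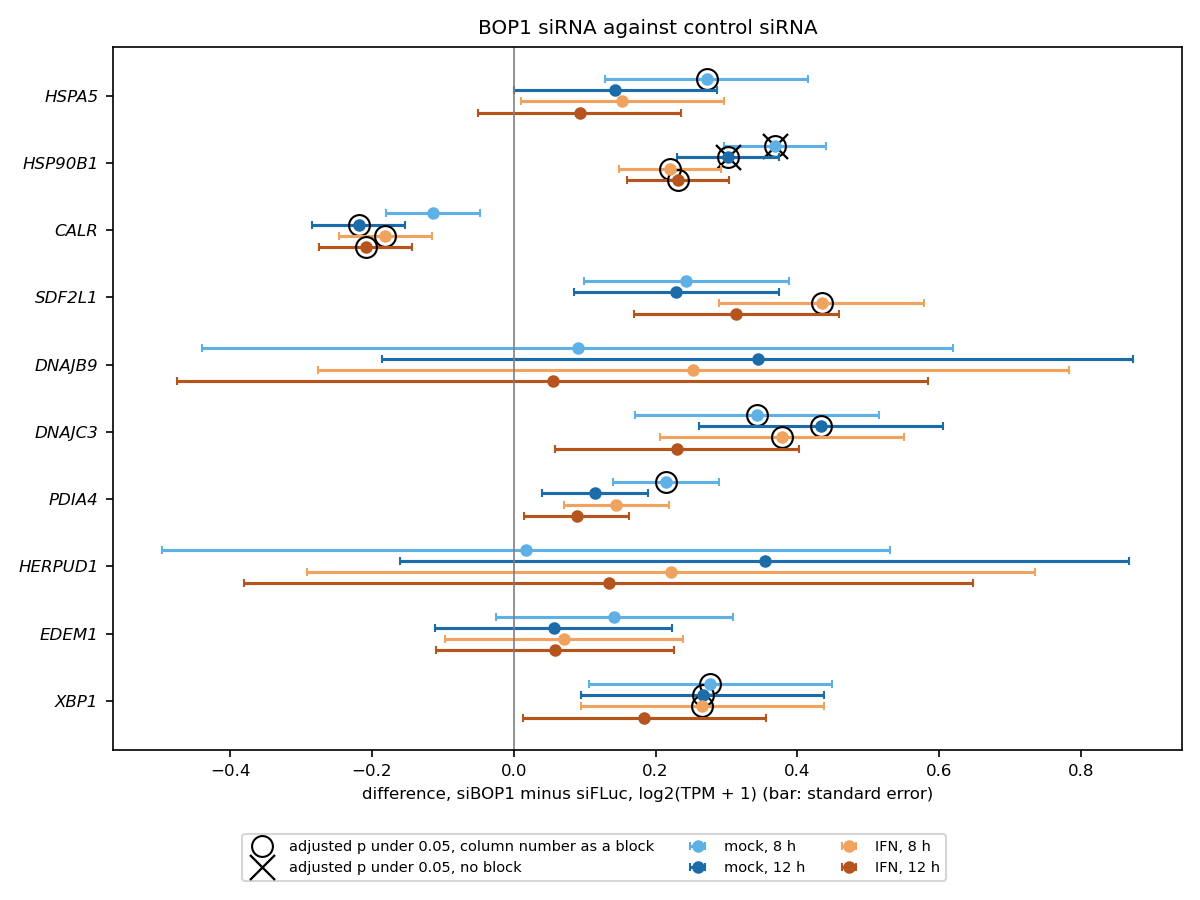
Difference between siBOP1 and siFLuc on the log2(TPM + 1) scale (horizontal axis) for each gene, treatment and time, with standard errors from the limma fit without a block as bars and the same marks for adjusted p under 0.05 as in the plot of IFN differences. HSP90B1 lies between 0.22 and 0.37 and CALR between −0.22 and −0.11.

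The wider lists with BOP1 siRNA are read against the 2.16%, 1.6%, 2% and 0.66% of all genes called (mock 8 h, mock 12 h, IFN 8 h, IFN 12 h), and no enrichment was tested. In mock cells at 8 h these genes were called. The lectin chaperone CANX (0.34), the isomerases P4HB (0.38) and PDIA6 (0.31), DERL1 (0.50) and the oligosaccharyltransferase subunits DDOST (0.23) and RPN2 (0.29) rose (adjusted p = 0.0479, 0.0441, 0.0392, 0.0206, 0.0469 and 0.0123 in limma). SEC61A1, the pore of the ER translocon, fell, with a difference of −0.64, and of −0.75 at 12 h in mock and −0.56 at 8 h with IFN (adjusted p = 0.0142, 0.00639 and 0.034). P4HB, DDOST and RPN2 rose in the same 3 comparisons. Of 25 genes of translocation and secretory entry, 2 rose and 1 fell, 3 rose and 1 fell, and 2 rose and 1 fell in these 3 comparisons, and none passed with IFN at 12 h. With the block 10, 9, 9 and 5 of the 25 rose and 1 fell in each of the 4 comparisons. Of all genes tested, 8.49%, 7.66%, 8.81% and 3.77% were called with the block. No sensor or transcription factor of the 13 passed in any of the 4 comparisons without the block, and CEBPB was the one gene of the 14 PERK and ATF4 targets that rose (0.48 in mock cells at 8 h and 0.61 with IFN at 12 h, adjusted p = 0.0456 and 0.0179).

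Time was compared as 12 h against 8 h within each siRNA and treatment. CALR was the member that rose, in IFN-treated cells, by 0.30 ± 0.07 with siFLuc (adjusted p = 0.0157 in limma) and 0.27 ± 0.07 with siBOP1 (adjusted p = 0.0296). It was 1 of 10 members in each, against 3.53% and 2.96% of genes tested. In mock cells none passed (0.131% with siFLuc and 0.23% with siBOP1). An unadjusted p under 0.05 was reached there by 1 member in each, and by 2067 and 1549 of the 16062 genes tested. Median-of-ratios rescaling lowered the 2 differences of CALR to 0.19 and 0.14 and ended both calls (adjusted p = 0.25 and 0.405). The upward share of all calls over time went from 90.5%, 80.2%, 59.5% and 82.7% (siFLuc mock, siFLuc IFN, siBOP1 mock, siBOP1 IFN) to 62.5%, 50.5%, 41.2% and 45.2% with it. With siFLuc the call was also lost without the IFN 12 h library numbered 1 or the IFN 8 h library numbered 2 (adjusted p = 0.0673 and 0.085). With siBOP1 it was lost without any of 5 of the 6 libraries (adjusted p = 0.0667 to 0.153), and kept without the IFN 12 h library numbered 4. Neither call held in a fit to the 2 groups compared alone (adjusted p = 0.175 and 0.189), and the siBOP1 call was lost without the intensity trend (adjusted p = 0.0767).

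HSPA5 in mock cells shows how the column number enters a comparison over time. Libraries numbered 1 and 2 read 312 and 294 TPM at 8 h and 216 and 218 at 12 h with siFLuc, whereas those numbered 4 read 284 and 304. With siBOP1 the values were 376 and 372 against 254 and 230.3 for numbers 1 and 2, and 329.5 against 330.0 for number 4. The pooled differences of −0.29 and −0.42 did not pass (adjusted p = 0.405 and 0.304) and did with the block (adjusted p = 0.0153 and 0.00286). With numbers 1 and 2 alone they were −0.48 and −0.63 (adjusted p = 0.0113 and 0.00206). The block is set within each time and does not pair numbers across times. It takes the spread between numbers out of the error, but that spread stays in a difference between times. Its p-values over time can therefore be too small and are a description. With the block, 3 members passed with siFLuc mock (8.37% of genes tested), 3 with siFLuc IFN (18.3%), 2 with siBOP1 mock (4.5%) and 2 with siBOP1 IFN (15%). XBP1 was among those with IFN, at 0.36 and 0.28 (adjusted p = 0.00104 and 0.00586), where numbers 1 and 2 alone gave 0.13 and 0.11 (adjusted p = 0.35 and 0.455). HERPUD1 with siBOP1 mock passed too (0.61, adjusted p = 0.0177), where numbers 1 and 2 alone gave 0.01.

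Interactions asked whether the IFN difference itself changed with siRNA or time. None of the 10 members passed in the siRNA by IFN interaction at 8 h or 12 h or in the time by IFN interaction with siFLuc or siBOP1, with or without the block, and none had an unadjusted p under 0.05. Over all genes limma called 0, 0, 1 and 0, while 353, 259, 575 and 603 had an unadjusted p under 0.05. For HSPA5 the difference of IFN differences between siRNAs at 12 h was −0.05 with a 95% interval of −0.47 to 0.37. Between 12 h and 8 h it was 0.30 (−0.12 to 0.72) with siFLuc and 0.37 (−0.05 to 0.79) with siBOP1. For HSP90B1 these values were −0.07 (−0.28 to 0.14), 0.12 (−0.10 to 0.33) and 0.19 (−0.02 to 0.40). So these data do not show that the IFN difference of HSPA5 or HSP90B1 was alike under both siRNAs, or that it differed between 8 h and 12 h.

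The split by column number is described without a test, since it entered the choice of these genes. At 12 h the libraries numbered 4 held more of most members than the others of their group. DNAJB9 led with a mean difference over the 4 groups of 1.73 ± 0.40 (SD over groups) on the log2(TPM + 1) scale, which is 3.31-fold, and HERPUD1 followed with 1.68 ± 0.30, or 3.20-fold. HERPUD1 read 74.1, 116, 111 and 114 TPM in the libraries numbered 4 of siFLuc mock, siFLuc IFN, siBOP1 mock and siBOP1 IFN at 12 h. The other 8 libraries of 12 h held 28.0 to 35.7 TPM of it, so the 2 sets were far apart. DNAJB9 read 33.6, 82.0, 60.8 and 78.3 TPM in the same 4 libraries and 13.9 to 22.6 TPM in the other 8.

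The other members followed at a distance. XBP1 differed by 0.52 ± 0.12, DNAJC3 by 0.45 ± 0.10, HSPA5 by 0.39 ± 0.14, EDEM1 by 0.35 ± 0.16 and SDF2L1 by 0.22 ± 0.16. PDIA4 (0.14 ± 0.10) and HSP90B1 (0.11 ± 0.06) lay near the median of all genes tested (0.12), and with median-of-ratios rescaling HSP90B1 was at −0.04 and PDIA4 at 0. CALR was at −0.07 ± 0.09. The library numbered 4 was above both others in all 4 groups for 8 of 10 members, the exceptions being PDIA4 (3 groups) and CALR (none), against 24.1% of genes tested. That count was 5 after median-of-ratios rescaling, which lowered the mean difference of HSPA5 to 0.24, of DNAJC3 to 0.31 and of XBP1 to 0.38. The share of all genes after rescaling is not given here, and the 24.1% is no background for the count of 5. Without rescaling, a mean difference of at least 1 was reached by 2 members and by 1.25% of genes tested. EDEM1 read 26.4, 31.2, 28.4 and 27.4 TPM in these libraries against 19.4 to 26.8 in the other 8.

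At 8 h the members did not split in this form. SDF2L1 was the 1 member with the library numbered 4 above in all 4 groups (0.26 ± 0.14, against 9.35% of genes tested), and HSPA5 (−0.15 ± 0.04) and DNAJC3 (−0.16 ± 0.12) were below in all 4 (9.81% of genes tested). DNAJB9 and HERPUD1 differed by 0.03 ± 0.10 and −0.03 ± 0.20. SDF2L1 ranged from 24.6 to 42.5 TPM over all libraries.

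**Figure D4:**
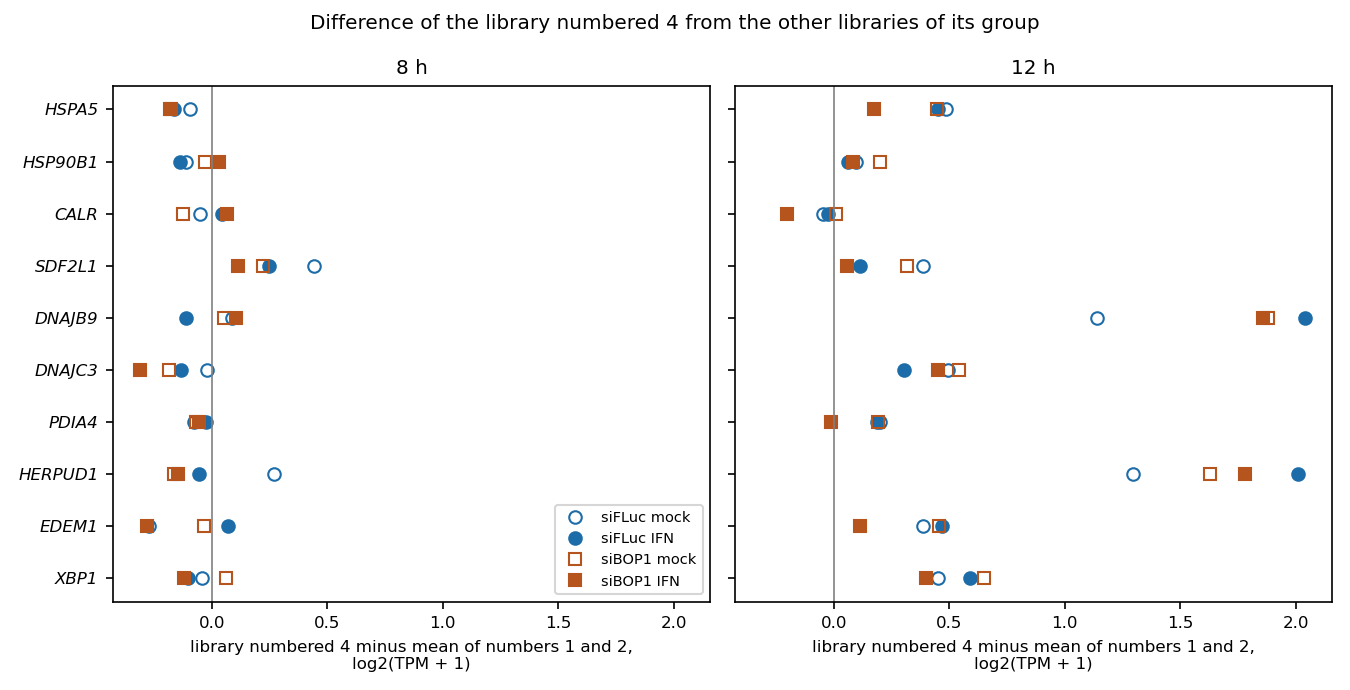
Difference of the library numbered 4 from the mean of the libraries numbered 1 and 2 of its group on the log2(TPM + 1) scale (horizontal axis), for each gene and group at 8 h (left) and 12 h (right). At 12 h DNAJB9 and HERPUD1 lie between 1.14 and 2.04 in all 4 groups, and at 8 h both lie between −0.16 and 0.27.

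The library numbered 4 was above in all 4 groups at 12 h for 24.1% of all genes tested. Counts in the wider lists are a description beside it, since the lists were chosen with earlier results of these data known. They also hold members, whose choice used this split: 6 of the lumenal chaperones and cochaperones and 2 of the ER-associated degradation genes. The sensors and transcription factors hold 1 member, the disulfide isomerases and oxidases 1, and the other lists none. At that time the library numbered 4 was above in all 4 groups for 11 of 14 targets of PERK and ATF4, with a median difference of 1.00 over that list. CHAC1 (2.44 ± 1.03), PPP1R15A (2.27 ± 1.13), which encodes the phosphatase subunit GADD34, SESN2 (2.18 ± 0.37) and ATF3 (2.14 ± 1.09) were the highest. The count was 9 of 13 for sensors and transcription factors, led by DDIT3 (2.94 ± 0.53). ERN1 differed by 1.07 ± 0.49, EIF2AK3 by 0.77 ± 0.17, ATF4 by 0.39 ± 0.15 and ATF6 by −0.01 ± 0.05. For genes of ER-associated degradation it was 12 of 19, for lumenal chaperones and cochaperones 9 of 16, for translocation and secretory entry 12 of 25, for cytosolic heat shock genes 5 of 10 and for disulfide isomerases and oxidases 3 of 13 (23.1%), near the share of all genes. MANF (0.49 ± 0.11) among the chaperones and SEC24D (0.86 ± 0.20), a coat protein of ER exit vesicles, were among the higher ones. The heat shock genes depended on 1 library: HSPH1 differed by 2.13 in siFLuc mock and by 0.55 to 0.79 in the other 3 groups. At 8 h, 4 of the 14 targets of PERK and ATF4 were above in all 4 groups and 2 were below. The shares of all genes tested were 9.35% and 9.81%. The median difference of that list was 0.02 at 8 h, with CHAC1 at 0.71 ± 0.48. Of the 13 sensors and transcription factors, 2 were above and 2 below in all 4 groups, and DDIT3 differed by 0.50 ± 0.41. The lower mitochondrial share given above belongs to the libraries numbered 4 at both times, and its part in these differences was not tested.

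**Figure D5:**
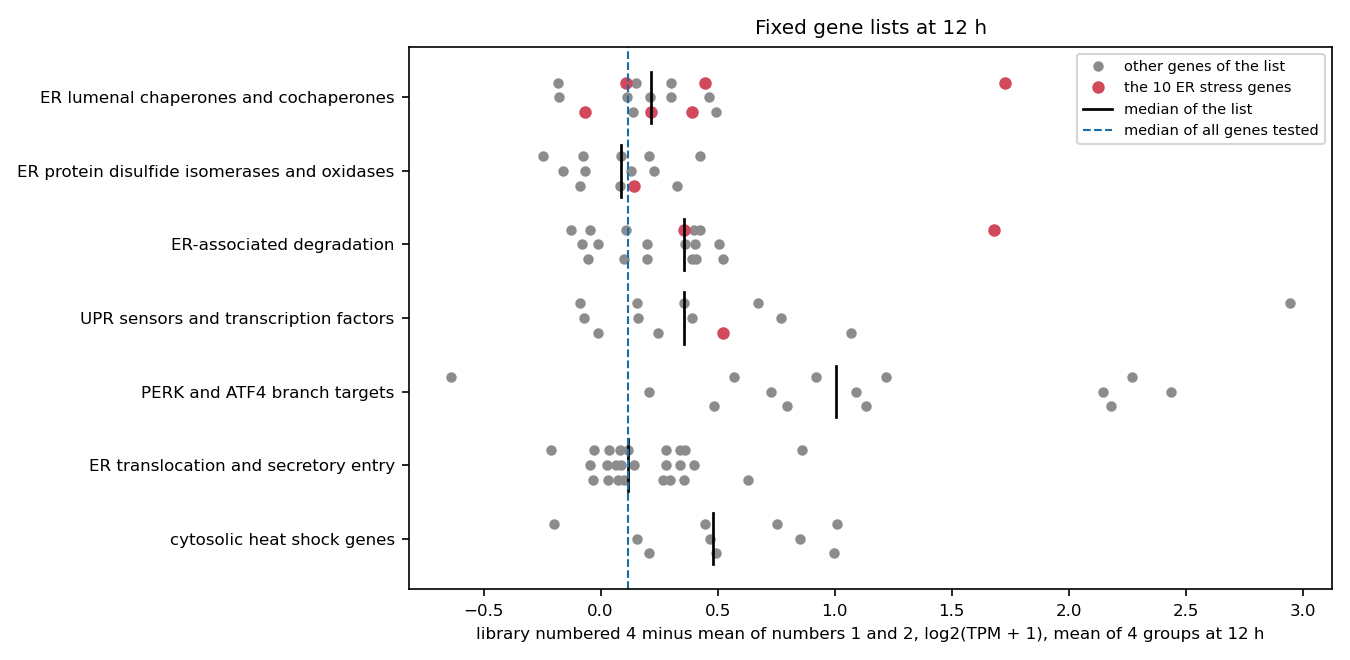
Mean over the 4 groups at 12 h of the difference between the library numbered 4 and the mean of numbers 1 and 2, on the log2(TPM + 1) scale (horizontal axis), for each gene of 7 lists, with the 10 genes in red. Black lines are list medians, 1.00 for PERK and ATF4 targets, and the dashed line is the median of all genes tested, 0.12.

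The promoter elements can be set beside these values. The 2 members with the widest split differ in them: the HERPUD1 window holds ATTGGgCCACG and TTGCATCA, whereas that of DNAJB9 holds none of the motifs searched. HSPA5, HSP90B1, CALR and XBP1 share the longer element, and their mean 12 h differences between numbers ran from −0.07 for CALR to 0.52 for XBP1. Outside the members, 38 genes held either form of the element and 24 of them were tested. The library numbered 4 was above in all 4 groups at 12 h for 9 of the 24, with a median difference of 0.21, against 24.1% and a median of 0.12 over all genes tested. With IFN at 12 h, 3 of the 24 rose and 2 fell with siFLuc, and 3 rose and none fell with siBOP1, against 13.5% and 14.8% of all genes called. PDIA6, NUCB1 and TRIM5 were the 3 in each case, of which TRIM5 is an interferon-stimulated restriction factor (2.93 and 2.81, adjusted p = 1.14e-13 and 2.33e-13 in limma). They were named after their values were seen.

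The genes most like HSPA5 over the 24 libraries, by Pearson r of log2(TPM + 1), were MANF (0.89), IL4R (0.86), IL1R1 (0.84), PANX1 (0.83) and ERO1B (0.82). Of the members, PDIA4 (0.78) and HSP90B1 (0.74) were nearest, followed by XBP1 (0.66), DNAJB9 (0.60), EDEM1 (0.52), SDF2L1 (0.46), HERPUD1 (0.40), DNAJC3 (0.34) and CALR (0.03). The libraries share their groups and column numbers, so these values describe the set of libraries and carry no p. On deviations from the group mean, which leave the spread between numbers, the 5 nearest were CTH, UBN2, KLF5, HIVEP2 and CCN2, between 0.96 and 0.97. PDIA4 was then at 0.94, DNAJC3 at 0.89, EDEM1 at 0.86, XBP1 at 0.85, HERPUD1 at 0.84, DNAJB9 at 0.80, HSP90B1 at 0.76 and SDF2L1 at 0.40, while CALR was at −0.12. MANF, the nearest over all libraries, is itself an ER stress gene and ranged from 105 to 202 TPM.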

How the data were processed

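Polyadenylated RNA of 24 A549 libraries was sequenced after TRIzol extraction, DNase treatment and an Illumina stranded preparation, per the labels' protocols. The authors deposited 1 table of TPM per gene, with 60609 rows, and all columns have the same total. The aligner, counting tool and genome build are not given in the sources used here. TPM keeps no depth, so counting error could not be given. Columns were matched to samples by name, and the 8 columns numbered 4, a number the labels do not use, were matched to groups only. No 2 columns were identical (r within groups 0.961 to 0.988).

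The 16062 rows that reached 1 TPM in 3 or more libraries were fitted in R 4.3.3 by limma 3.58.1 on log2(TPM + 1), over all 24 libraries and 8 group means, with an intensity trend and Benjamini-Hochberg adjustment within each of 16 comparisons (threshold 0.05). Differences are on that scale, and those of low genes are understated by it. The block is the column number within each time. Same-numbered libraries deviated together in all 8 IFN and siRNA comparisons (r 0.115 to 0.508, limit 0.1), which comes from the data and not from the labels. Between the labelled numbers 1 and 2 alone, r was −0.01 to 0.16 and over 0.1 in 3 of 8.

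Alternatives were the pseudocount, the filter, median-of-ratios and quantile scaling, the trend, the samples fitted, the block, the libraries numbered 1 and 2 alone, and leaving out each library. Motifs were searched on both strands of RefSeq promoter windows of GRCh38.p14. Named genes are the 10 members, BOP1, 5 sensors and factors (ERN1, EIF2AK3, ATF6, DDIT3 and ATF4), at most 4 genes with the largest change per list and comparison, and the 5 most like HSPA5. The members and lists were chosen with earlier results of these data known.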

Additional observations from a re-analysis of the deposited data

How the results depend on the processing

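The number of the 10 genes past the threshold is given here for the IFN comparisons (siFLuc 8 h, siFLuc 12 h, siBOP1 8 h, siBOP1 12 h), then the siRNA comparisons (mock 8 h, mock 12 h, IFN 8 h, IFN 12 h), then the comparisons over time (siFLuc mock, siFLuc IFN, siBOP1 mock, siBOP1 IFN). It was 0, 4, 0 and 4, then 1, 1, 0 and 0, then 0, 1, 0 and 1. A pseudocount of 0.1 and a filter at a mean of 5 TPM left these counts as they were. Median-of-ratios rescaling gave 3, 5, 3 and 5, then 1, 1, 0 and 0, then 0 throughout. Of the 16062 genes tested, 1141, 1373, 1324 and 1421 rose and 512, 803, 698 and 856 fell with it in the IFN comparisons. In the siRNA comparisons 204, 152, 277 and 60 rose and 152, 141, 155 and 53 fell. Over time 20, 332, 21 and 268 rose and 12, 326, 30 and 325 fell. The number of the 10 genes with the library numbered 4 above in all 4 groups at 12 h went from 8 to 5, without a share of all genes for the 5. Quantile normalization gave 0, 4, 0 and 0, then 1, 1, 0 and 0, then 0, 1, 0 and 0. Without a filter the mock 12 h siRNA count was 0 and the others did not change. Without the intensity trend the counts were 0, 3, 0 and 3, then 1, 0, 0 and 0, then 0, 1, 0 and 0. Fits to the groups compared alone gave 2, 1, 2 and 0, then 0 in the other 8, with fewer libraries to estimate the spread. For the other changes the cause was not tested. Shares of all genes called are given above for the first counts, and are not given for the settings other than rescaling.

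With the column number as a replicate block the counts were 6, 6, 4 and 5, then 5, 4, 5 and 2, then 3, 3, 2 and 2. A block on the labelled numbers 1 and 2 alone gave 6, 6, 3 and 7, then 4, 1, 3 and 0, then 2, 1, 2 and 2, and the same libraries without a block 6, 6, 3 and 6, then 1, 0, 0 and 0, then 1, 1, 1 and 2. The interactions stayed at 0 with and without either block. The choice of the genes used the split by column number, so these counts are a description. Neither block pairs libraries across times, so over time its p-values can be too small. Shares of all genes called are given above for the block on all libraries, and not for the fits of numbers 1 and 2 alone.

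Leaving out 1 library at a time gave counts of 0 to 1, 3 to 5, 0 and 0 to 5 for IFN, 1, 0 to 1, 0 and 0 for siRNA, and 0, 0 to 1, 0 and 0 to 1 over time. The difference of DNAJB9 with siFLuc at 12 h ran from −0.018 to 1.05, reversed without the IFN library numbered 4. Depth is unknown, and 3 libraries a group limit every interval.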
